A study of Mus musculus with 22 samples.

Results

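Footprints of hnRNP A1, an RNA binding protein of the nucleus and cytoplasm, were examined over 6 genes of the sodium and calcium pump ATPases in mouse spinal cord. The genes were Atp1b1, Atp2a2, Atp2b1, Atp2b2, Atp2b3 and Atp2b4. A footprint counted for a gene when it overlapped the gene's GENCODE span on GRCm38 by at least 1 nt, and 237 of the 136207 footprints did so. The genes were taken by name, with earlier results of these data known. They make up 6 of the 13948 genes with a footprint in at least 1 mouse.

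CLIPseq crosslinks protein to RNA in tissue, pulls the protein down with an antibody and sequences the RNA that comes with it. All 10 animals were female wild-type C57Bl/6 mice. The labels call 3 of them naïve, and the 7 others had experimental autoimmune encephalomyelitis (EAE), a model of multiple sclerosis raised with MOG35-55 peptide in complete Freund's adjuvant plus pertussis toxin. Their cords were taken 15 days after onset, and the labels give the age at immunization as 12 weeks in 1 place and 8 weeks in another. The study called a clinical score of 2.5 or more severe, which makes EAE mice 3, 4 and 7 (scores 1.5, 1.5 and 1.0) mild and EAE mice 1, 2, 5 and 6 (scores 2.5, 3.0, 2.5 and 3.0) severe. Each sample was spinal cord tissue of 1 mouse, so fewer cells of a type, less RNA per cell and less binding cannot be told apart.

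These pumps spend ATP to hold ion gradients. Atp1b1 encodes the β1 subunit of the Na,K-ATPase, which carries the catalytic α subunit to the plasma membrane and lets neurons and glia restore sodium and potassium after firing. Atp2a2 encodes SERCA2, which returns calcium to the endoplasmic reticulum. Atp2b1 to Atp2b4 encode the plasma membrane calcium pumps PMCA1 to PMCA4, which push calcium out of the cell and are switched on by calmodulin. PMCA transcripts are alternatively spliced at a region in the first cytosolic loop (site A) and at the calmodulin-binding tail (site C). hnRNP A1 binds UAG-containing RNA and takes part in the choice of splice sites.

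The lists themselves differed widely in length. The naïve mice had 17119 to 17494 footprints and the mild EAE mice 9751 to 24433. EAE mouse 5 had 31870, the longest list, and EAE mice 1, 2 and 6 had 2670, 209 and 673. A file gives positions only, with no read count and no strand, so the depth behind a footprint is unknown and the covered length of a gene depends on the length of the list. Neuron, oligodendrocyte and astrocyte markers were footprinted in all 3 groups (8 of 8, 6 of 6 and 5 to 6 of 6 genes). Of 8 microglia and leukocyte markers, 0 had a footprint in a naïve mouse, 6 in a mild and 5 in a severe EAE mouse, with summed lengths of 0 nt in every naïve mouse, 962 to 1943 nt in mild and 0 to 2638 nt in severe EAE mice. Cd3e and Aif1 were at 0 in all 10 mice. The part of these cells in the pump results was not tested.

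Sequences of Atp2b2, the gene with the most footprints, are shown first: its most often footprinted exonic stretch and its intronic places met in more than 1 mouse. The stretch of Atp2b2 footprinted in the most mice, 7 of 10, lay in exon 3, the exon that holds the start codon, at coding positions 50 to 92 (chr6:113842239-113842281, minus strand). Below it are 3 places in Atp2b2 introns. The first is the joined extent of footprints from 4 mice, which share 11 nt of it, and the others are the stretches common to 3 and to 2 mice. Capitals mark TAG, the DNA spelling of UAG, on the strand of the gene.
Atp2b2 exon 3: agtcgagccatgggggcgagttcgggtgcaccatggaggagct
Atp2b2 intron 2, chr6:113850822-113851102: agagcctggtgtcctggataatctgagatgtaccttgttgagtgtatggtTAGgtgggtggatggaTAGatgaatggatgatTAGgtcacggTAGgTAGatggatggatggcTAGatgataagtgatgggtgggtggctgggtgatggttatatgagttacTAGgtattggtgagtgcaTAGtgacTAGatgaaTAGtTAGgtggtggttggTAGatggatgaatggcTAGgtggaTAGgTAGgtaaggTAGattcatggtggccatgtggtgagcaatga
Atp2b2 intron 2, chr6:113846647-113846782: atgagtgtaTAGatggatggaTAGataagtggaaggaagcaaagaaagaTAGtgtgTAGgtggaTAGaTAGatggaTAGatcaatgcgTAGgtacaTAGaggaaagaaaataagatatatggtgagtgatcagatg
Atp2b2 upstream intron, chr6:113974367-113974463: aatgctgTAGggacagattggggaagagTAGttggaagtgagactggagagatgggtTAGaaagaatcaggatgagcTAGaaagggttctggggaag
The exon stretch held 0 TAG. The intronic stretches held 16 in 281 nt, 9 in 136 nt and 4 in 97 nt. In the same order they held 13, 4 and 2 GATG. Of 990 windows of 281 nt laid end to end over the Atp2b2 introns, 0.404% held at least 16 TAG, and 96.6% held at least 1. Of 2073 windows of 136 nt, 0.482% held at least 9, and of 2923 windows of 97 nt, 4.17% held at least 4. Repeated sequence was not set apart, and these counts describe letters only.

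Splice junctions form the other set. Footprints often came in pairs that stopped exactly at the end of 1 exon and resumed exactly at the start of the next, as a spliced RNA aligned to the genome would. For each gene with a junction paired in at least 3 mice, the most frequent one is printed as the last 30 nt of the upstream exon in lower case and the first 30 nt of the downstream exon in capitals. A junction of Atp2b2 and one of Atp2b3 that tell transcripts apart follow.
Atp1b1 exons 3 and 4: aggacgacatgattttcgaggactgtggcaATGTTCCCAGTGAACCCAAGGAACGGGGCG
Atp2a2 exons 13 and 14: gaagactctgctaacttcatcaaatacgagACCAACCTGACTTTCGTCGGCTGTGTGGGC
Atp2b1 exons 7 and 8: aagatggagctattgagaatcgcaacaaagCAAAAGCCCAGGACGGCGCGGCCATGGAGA
Atp2b2 exons 7 and 11: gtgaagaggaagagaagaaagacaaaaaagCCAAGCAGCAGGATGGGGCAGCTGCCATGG
Atp2b3 alternative exon and exon 21: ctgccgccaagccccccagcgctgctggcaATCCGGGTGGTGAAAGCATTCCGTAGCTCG

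Atp1b1 (ENSMUSG00000026576.12, chr1:164437109-164458355, minus strand) had 17 footprints. The covered length was 682, 0 and 229 nt in naïve mice 1, 2 and 3, and 233, 266 and 445 nt in mild EAE mice 3, 4 and 7. In severe EAE it was 357 nt in mouse 5 and 0 nt in mice 1, 2 and 6. The naïve values enclosed all EAE values, and the means were 304 ± 347 nt in naïve (SD, n = 3), 315 ± 114 nt in mild (SD, n = 3) and 89.2 ± 178 nt in severe EAE (SD, n = 4). Exon 4 carried the recurrent site. Its first 90 nt, coding positions 383 to 472 (chr1:164441552-164441641), were footprinted in naïve mice 1 and 3 and in EAE mice 3, 4 and 5. In EAE mice 3 and 5 the footprint spanned the whole 185-nt exon. The pair across exons 3 and 4 was seen in naïve mouse 1 and EAE mice 3 and 4. A second site in the 5′ untranslated region was shared by EAE mice 4 and 7, and a site in the 3′ untranslated region by naïve mouse 3 and EAE mouse 7, of which the latter's footprint also lay over the gene Nme7.

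Atp2a2 (ENSMUSG00000029467.15, chr5:122453513-122502225, minus strand) was footprinted almost only in its coding sequence. It had 85 footprints, 83 of them mostly coding, and coding bases made up 95.3% of its covered length. The covered length was 901, 378 and 818 nt in naïve mice 1 to 3, and 853, 426 and 2090 nt in EAE mice 3, 4 and 7. In EAE mice 1, 2, 5 and 6 it was 317, 0, 2205 and 0 nt. The groups overlapped, with means of 699 ± 281 nt (SD, n = 3), 1123 ± 864 nt (SD, n = 3) and 630.5 ± 1060 nt (SD, n = 4). Over all mice, 93.4% of the 3132-nt coding sequence was covered at least once and 74.2% in at least 2 mice, the highest shares of the 6 genes. No single site dominated. The deepest stretches, in exon 7 (coding positions 615 to 630) and exon 5 (chr5:122489327-122489344), were each footprinted in 6 mice.

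**Figure D1:**
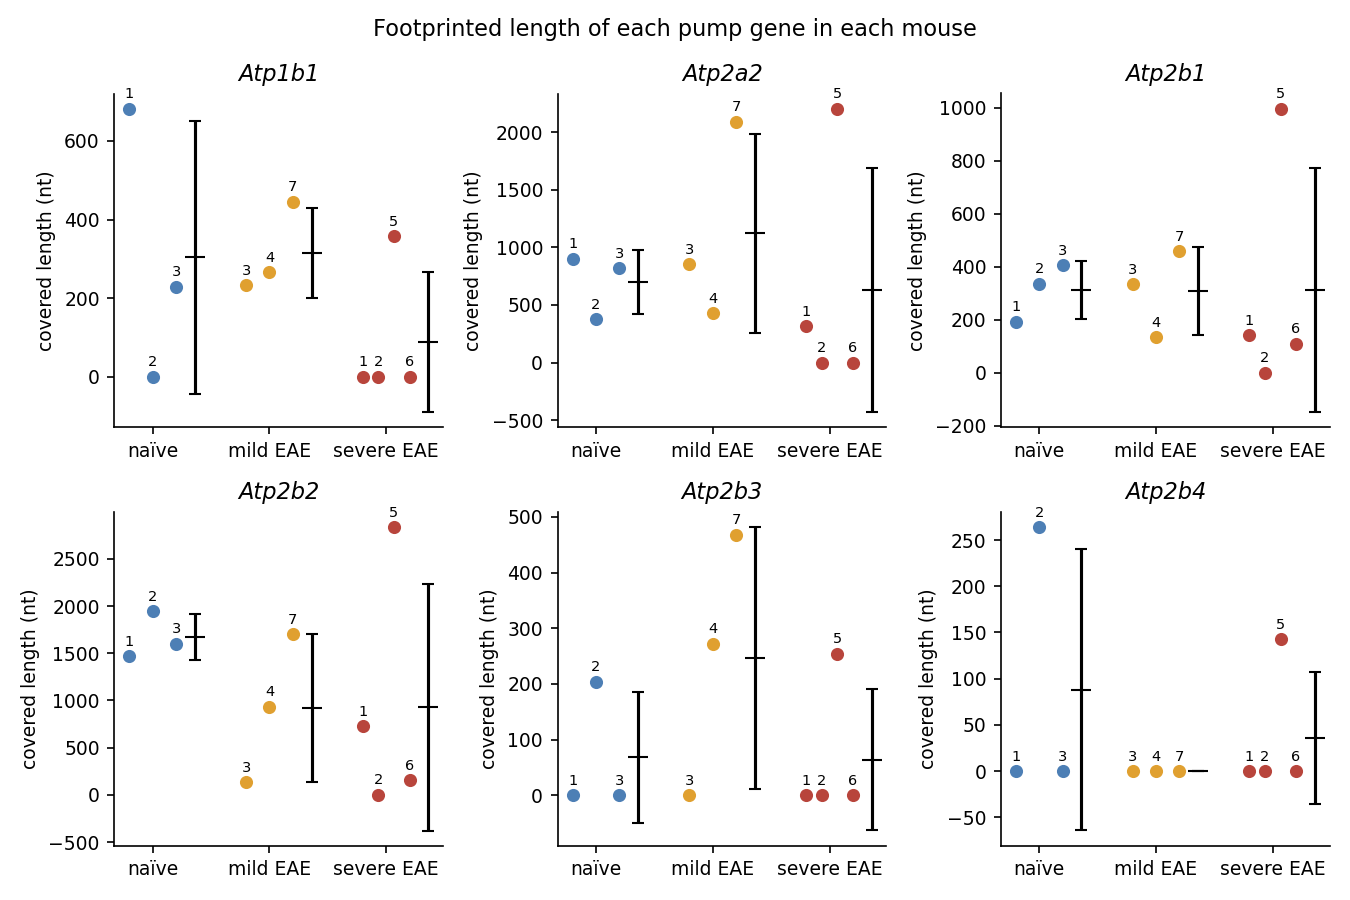
Covered length in nt (y axis) of each of the 6 genes in each mouse, by group; points are mice with their label number, and the bars beside them are the mean and SD. In the severe group EAE mouse 5 is the highest point for all 6 genes (2835 nt for Atp2b2), while EAE mouse 2 is at 0 for all 6.

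Of the 85 Atp2a2 footprints, 80 began or ended exactly at an annotated exon edge (94.1%), and 77 belonged to a pair across an annotated intron (90.6%). The same shares were 55.2% and 50.8% over the 117994 footprints that lay in protein-coding genes. Those take in intronic footprints, of which Atp2a2 had 1, so the 2 sets were not matched for class. Paired footprints were found at 15 of the 19 junctions of the longest coding transcript, and at 14 of them in at least 2 mice. The pair across exons 13 and 14 recurred in 5 mice, naïve mice 1 and 3 and EAE mice 3, 7 and 5. Exon 2, which has only 18 nt (chr5:122500931-122500948), was footprinted from end to end in naïve mice 1 and 3 and EAE mice 3 and 7. The 4 footprints next to it in exon 3 also lay over the antisense gene Gm43361, and without strand the transcripts cannot be told apart. The pair across exons 19 and 20 was seen in all 3 mild EAE mice and in EAE mouse 5, and in 0 naïve mice. The pair across exons 1 and 2 was seen in naïve mice 1 and 3 and in 0 EAE mice.

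**Figure D2:**
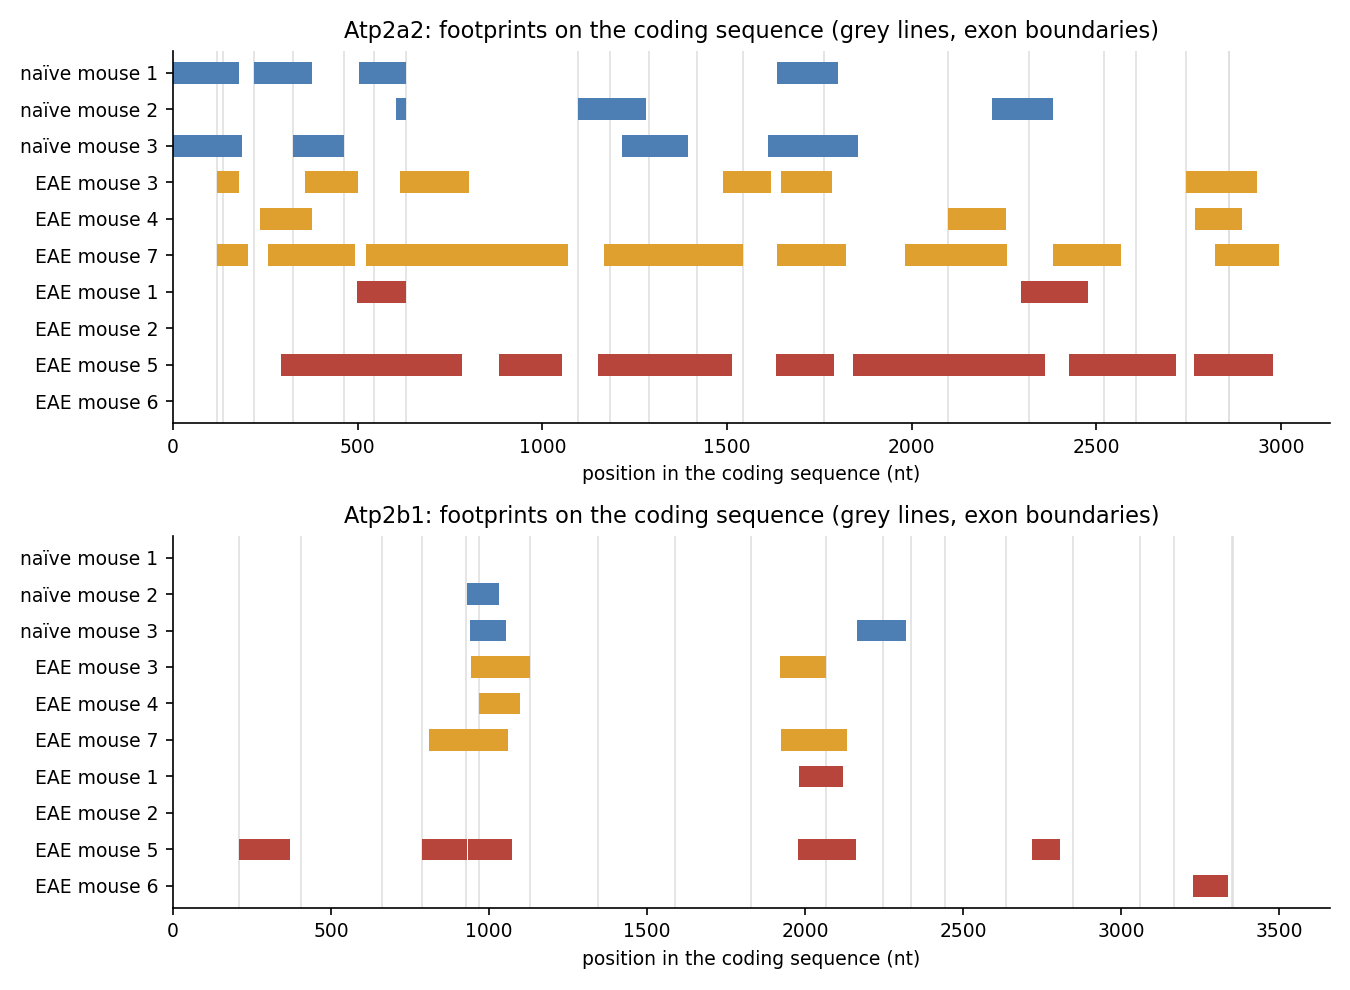
Footprints (bars, blue for naïve, yellow for mild and red for severe EAE) on the coding sequence of Atp2a2 (top) and Atp2b1 (bottom), by position in nt (x axis) and mouse (y axis), with exon boundaries as grey lines. Atp2a2 is covered along its length, at most in 6 mice at any base, whereas Atp2b1 is covered at a few places, mainly exons 7 and 8 in up to 6 mice and exon 12 in 4.

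Atp2b1 (ENSMUSG00000019943.10, chr10:98914406-99026143, plus strand) encodes PMCA1, the widely expressed form. The covered length was 192, 336 and 406 nt in naïve mice 1 to 3, and 333, 133 and 459 nt in EAE mice 3, 4 and 7. In EAE mice 1, 2, 5 and 6 it was 141, 0, 996 and 110 nt. The group means were nearly the same, at 311 ± 109 nt (SD, n = 3), 308 ± 164 nt (SD, n = 3) and 312 ± 460 nt (SD, n = 4), with an SD above the mean in severe EAE. Only 30.1% of the coding sequence was covered in any mouse. The first 64 nt of exon 8 (chr10:98994646-98994709) were footprinted in 6 mice, naïve mice 2 and 3 and EAE mice 3, 4, 7 and 5. In 5 of them the footprint was paired with one at the end of exon 7, a 39-nt exon at the position of site A. Exon 12 was footprinted in EAE mice 3, 7, 1 and 5 and in 0 of 3 naïve mice, over a shared 86 nt (chr10:99003291-99003376). The severe EAE mice 1 and 5 and the mild EAE mouse 7 had the pair across exons 12 and 13. In naïve mouse 1 and EAE mouse 5 a pair in the 5′ untranslated region joined exons of the short coding transcript Atp2b1-207.

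Atp2b2 (ENSMUSG00000030302.16, chr6:113743831-114042613, minus strand) encodes PMCA2, a neuronal form with a high affinity for calmodulin. It had the most footprints of the 6 genes, 88, at 52 separate regions. The covered length was 1471, 1942 and 1602 nt in naïve mice 1 to 3, and 134, 934 and 1700 nt in EAE mice 3, 4 and 7. In EAE mice 1, 2, 5 and 6 it was 729, 0, 2835 and 157 nt. The naïve mice lay close together at 1672 ± 243 nt (SD, n = 3). The mild mean was 923 ± 783 nt (SD, n = 3) and the severe mean 930 ± 1308 nt (SD, n = 4), and EAE mice 7 and 5 reached or passed the naïve range.

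The make-up of the Atp2b2 footprints is given by group as a description. Introns made up 55.8% of the covered length in naïve mice, 16.5% in mild and 19.5% in severe EAE mice by the base-by-base classes, and coding sequence made up 19.2%, 54.1% and 54.7%. The intronic length was 756, 1335 and 705 nt in naïve mice 1 to 3. It was 0, 253 and 203 nt in EAE mice 3, 4 and 7, and 21, 0, 705 and 0 nt in EAE mice 1, 2, 5 and 6. The lowest naïve mouse and EAE mouse 5 tied at 705 nt, and every other EAE mouse lay below all 3 naïve mice. The naïve mean was 932 ± 350 nt (SD, n = 3) and the EAE mean 169 ± 259 nt (SD, n = 7), a difference of -763 nt. The intronic comparison was chosen with these values in view. The two-sided exact permutation test over the 120 splits of the mice gave p = 0.0167. Adjusted with the Benjamini-Hochberg method over the 3094 genes with intronic length in at least 3 mice, p was 0.202, which does not pass 0.05. In that comparison 5.2% of the genes had groups that did not overlap with EAE lower, 403 genes had an unadjusted p under 0.05 and 0 an adjusted one. Without EAE mouse 5 the groups separated and the exact permutation test gave p = 0.0119, with an adjusted p of 0.094. The 5.2% above is for the comparison with EAE mouse 5 included. The share without that mouse is not given here, so this separation is not read as particular to Atp2b2. The exonic length of Atp2b2 moved less, from 740 ± 147 nt in naïve (SD, n = 3) to 758 ± 792 nt in EAE mice (SD, n = 7).

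**Figure D3:**
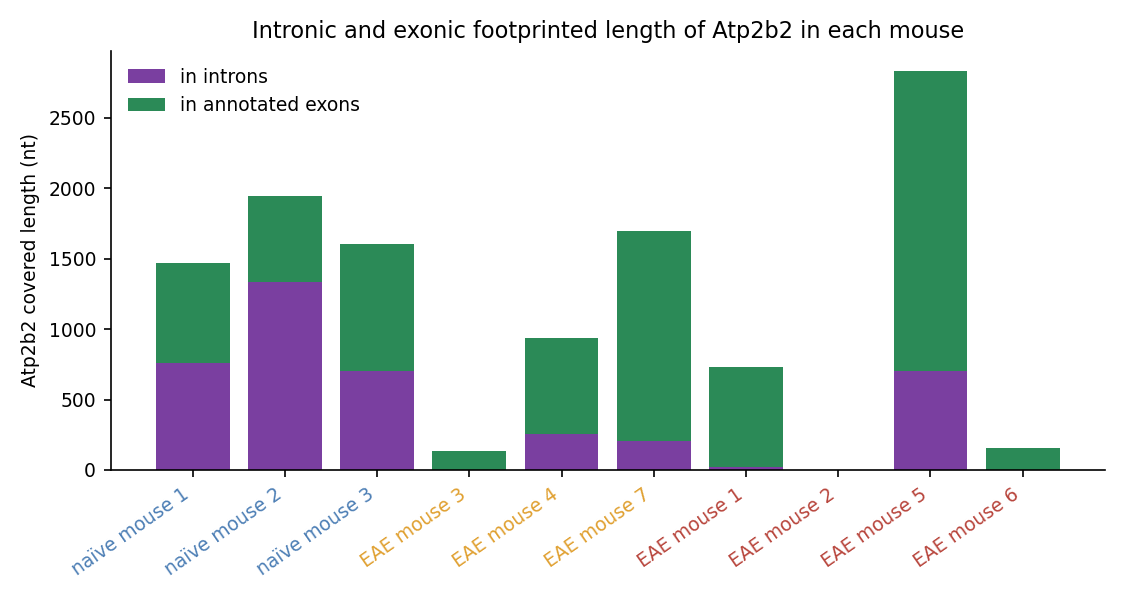
Covered length of Atp2b2 in nt (y axis) in each mouse, divided into nt in introns (purple) and in annotated exons (green). The purple parts are 705 to 1335 nt in the naïve mice and at most 253 nt in 6 of the 7 EAE mice, with EAE mouse 5 at 705 nt.

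The other genes had little intronic coverage to compare. Atp2b1 had 0, 119 and 139 nt in naïve mice 1 to 3 and at most 2 nt in any EAE mouse (p = 0.0667 by the exact permutation test and 0.331 after adjustment). Atp2a2 had 138, 1 and 2 nt in naïve mice 1 to 3 and at most 23 nt in any EAE mouse. Atp2b4 had 131 nt in naïve mouse 2 and 28 nt in EAE mouse 5. Atp1b1 and Atp2b3 went the other way. They had 0 nt in every naïve mouse, with 178 nt for Atp1b1 in EAE mouse 7 and 136 nt for Atp2b3 in EAE mouse 5. Taking all 6 genes, introns held 27.5, 50.8 and 27.7% of the covered length in naïve mice 1 to 3 and between 0 and 12.8% in the 6 EAE mice with a footprint there. The same shares over all genes were 41.5 to 54.2% in naïve and 23.8 to 44.1% in EAE mice. The ranges overlapped, since EAE mouse 2, at 44.1%, lay above naïve mouse 3, at 41.5%. EAE mouse 2 had no footprint over the 6 genes. In the 6 EAE mice that had one, the all-gene shares were 23.8 to 39.2%, also below every naïve mouse. A lower intronic share in EAE was therefore not particular to the 6 genes. The paper also reports less intronic binding in EAE mice.

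The intronic sites of Atp2b2 were of 2 kinds. In naïve mice 1 and 3 and EAE mouse 5 the same place in intron 2 was footprinted. The midpoint of the naïve stretch lay 4068 nt from the nearest exon. In the direction of the gene, both naïve footprints ended at the same base. A second place in intron 2 was footprinted in naïve mice 1 and 3 and EAE mice 4 and 5. An intron upstream of the first exon of the longest coding transcript held a site shared by EAE mice 4 and 5. These are the 3 TAG-rich stretches printed above. All other intronic footprints of Atp2b2 stood alone, including every intronic footprint of naïve mouse 2. Footprints of at least 30 nt wholly inside Atp2b2 introns held 2.76 TAG per 100 nt (28 footprints), against 2.20 in such footprints of all protein-coding genes (29652 footprints). In naïve mice, which gave 21 of the 28, the density was 2.05, against 2.09 in all genes. The 3 mild and 4 severe footprints held 5.60 and 3.96, against 2.49 and 2.11. Footprints at the TAG-rich places are among them, and also among those of naïve mice 1 and 3. Footprints wholly inside exons held 0.366 per 100 nt in Atp2b2 and 0.635 in all genes. Over the 237 footprints of the 6 genes, 40.5% held TAG and 13.1% held TAGG on the gene's strand, against 50.8% and 18.6% of the 112853 footprints that lay within a single protein-coding gene. On the other strand the 6 genes had 48.5% and 13.5%, and all genes 56.1% and 20.7%. Every TAGG is also counted as a TAG.

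**Figure D4:**
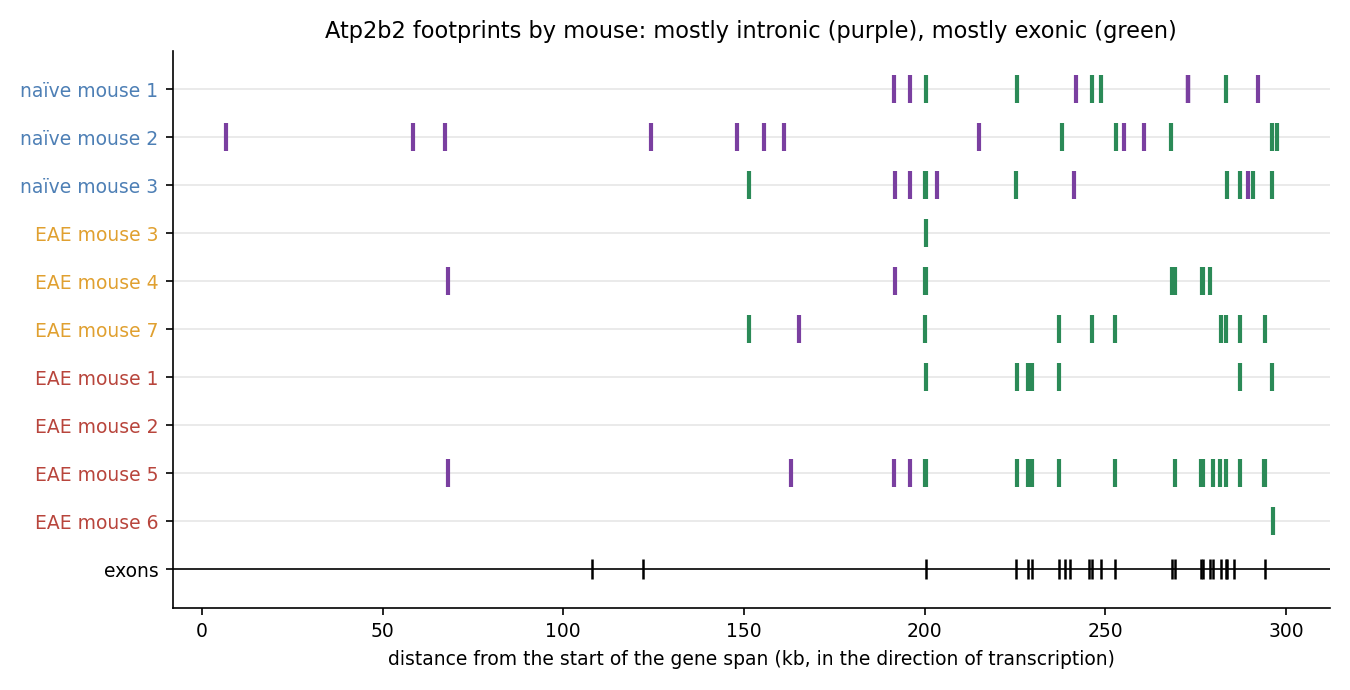
Footprints of Atp2b2 along the gene, as distance from the start of its span in kb (x axis), 1 row per mouse, purple where mostly intronic and green where mostly exonic, with the exons of the longest coding transcript below. Intronic marks are spread over all 3 naïve rows, and the green marks near exon 3 recur in 7 of 10 rows.

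Of the 88 Atp2b2 footprints, 31 began or ended at an exon edge (35.2%), the lowest share of the 6 genes. The exonic sites of Atp2b2 followed the start codon and a few later exons. The exon 3 site was shared by 2 naïve, 3 mild and 2 severe EAE mice. In naïve mouse 3 and EAE mouse 7 that exon was paired with the upstream exon of transcripts Atp2b2-201 and Atp2b2-208, which is not the first exon of the longest coding transcript. The severe EAE mice 1 and 5 shared the pairs across exons 4 and 5 and across exons 6 and 7, neither of which was paired in another mouse. EAE mice 4 and 5 shared the pair across exons 16 and 17. A stretch of 107 nt in an exon that is annotated only in transcripts outside the coding set (chr6:113755242-113755348) was footprinted in naïve mouse 3 and EAE mice 7, 1 and 5. In naïve mouse 3 it was paired with the next exon of a transcript annotated as a target of nonsense-mediated decay. A stretch of the 3′ untranslated region was shared by naïve mice 2 and 3 and EAE mouse 1.

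At site A, the Atp2b1 pair across exons 7 and 8 was seen in 5 mice. A site A pair of Atp2b2 and a site C pair of Atp2b3 were each seen in 1 mouse. In EAE mouse 7 the end of Atp2b2 exon 7 was paired with the start of exon 11. The junction leaves out exons 8, 9 and 10 (33, 60 and 42 nt), the alternative exons at site A, and is annotated in 3 of the 4 coding transcripts. None of those 3 exons had a footprint in any of the 10 mice. In EAE mouse 4 a 154-nt exon of Atp2b3 that is found in 1 of its 3 coding transcripts was paired with exon 21, at the position of site C. These Atp2b2 and Atp2b3 pairs each rest on 1 mouse.

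Atp2b3 (ENSMUSG00000031376.15, chrX:73503086-73571005, plus strand) encodes PMCA3, and Atp2b4 (ENSMUSG00000026463.17, chr1:133699457-133801041, minus strand) PMCA4. Both were at the edge of detection. Atp2b3 had 204 nt in naïve mouse 2, 272 and 468 nt in EAE mice 4 and 7, 254 nt in EAE mouse 5 and 0 nt in the other 6 mice. Its 10 footprints lay at 10 different regions and no base was covered in more than 1 mouse. Atp2b4 had 264 nt in naïve mouse 2 and 143 nt in EAE mouse 5, with 0 nt in the other 8 mice, and its 5 footprints also stood alone. A file with no footprint over a gene does not show that the RNA was unbound.

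**Figure D5:**
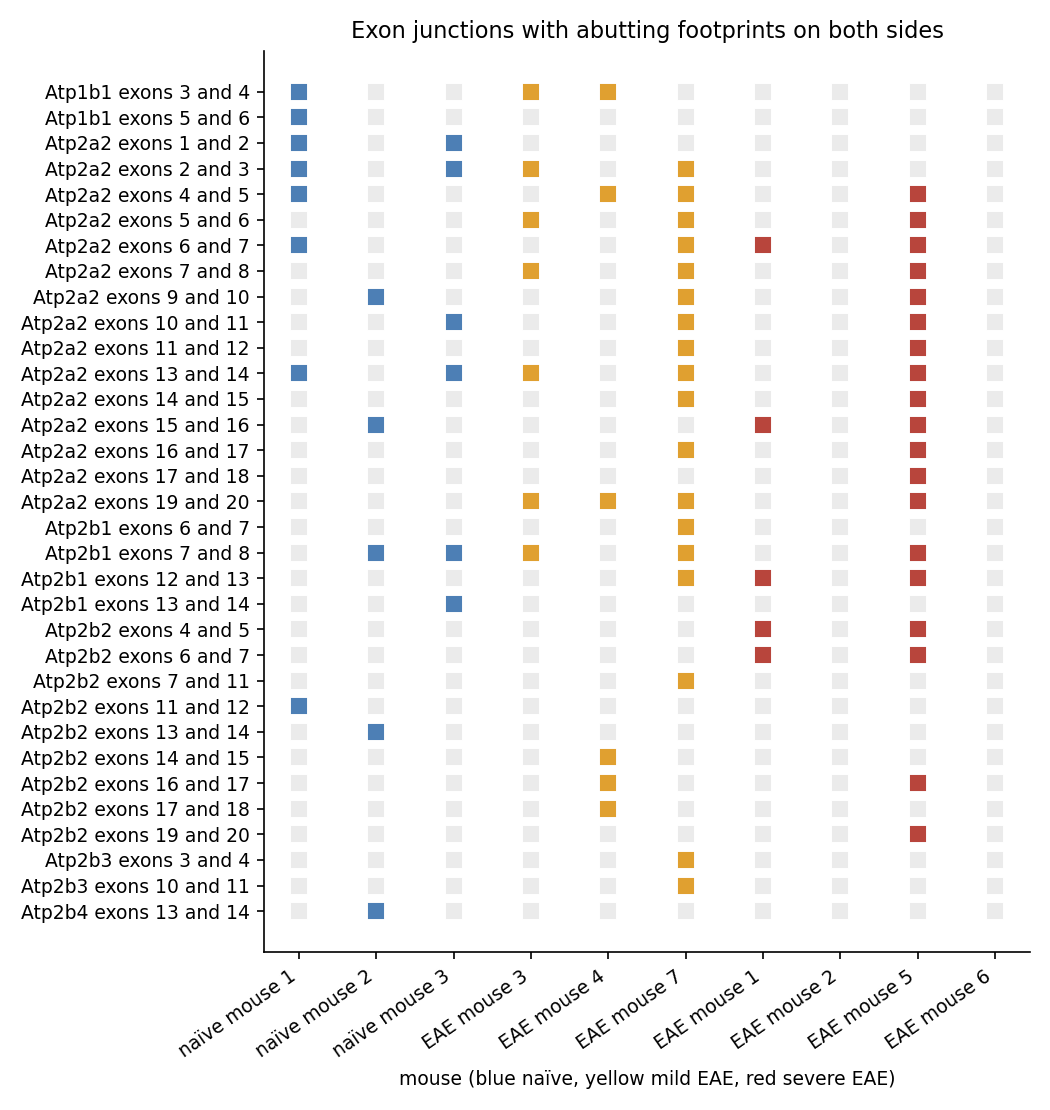
Junctions between numbered exons (rows) at which a mouse (columns) had footprints abutting both sides; filled squares mark a pair, blue for naïve, yellow for mild and red for severe EAE, and grey squares mark none. Rows of Atp2a2 are filled most often, up to 5 mice for exons 13 and 14, and EAE mice 2 and 6 have no filled square.

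One junction was paired in 3 of the 4 plasma membrane pumps. Exons of 180 and 88 nt follow each other in all 4 genes, as exons 13 and 14 in Atp2b1, Atp2b3 and Atp2b4 and as exons 16 and 17 in Atp2b2. The pair across them was found for Atp2b1 in naïve mouse 3, for Atp2b2 in EAE mice 4 and 5 and for Atp2b4 in naïve mouse 2, and in 0 mice for Atp2b3. The 60 nt around it are printed with capitals where a base differs from Atp2b1.
Atp2b1: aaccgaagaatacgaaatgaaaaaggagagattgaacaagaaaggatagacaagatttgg
Atp2b2: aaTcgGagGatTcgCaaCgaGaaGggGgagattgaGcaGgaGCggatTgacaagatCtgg
Atp2b3: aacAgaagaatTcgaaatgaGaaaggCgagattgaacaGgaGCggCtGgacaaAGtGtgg
Atp2b4: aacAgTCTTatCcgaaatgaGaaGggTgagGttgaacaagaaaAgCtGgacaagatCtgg
Atp2b2, Atp2b3 and Atp2b4 differed from Atp2b1 at 15, 12 and 14 of the 60 positions. Over the 268 nt of both exons, 74.6% of bases were the same in Atp2b1 and Atp2b2, and 77.2% in Atp2b1 and Atp2b4.

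Whether covered length differed between groups was tested for all 6731 genes with a footprint in at least 3 of the 10 mice, with the two-sided exact permutation test on the difference of means and Benjamini-Hochberg adjustment over those genes. Atp1b1, Atp2a2, Atp2b1, Atp2b2 and Atp2b3 were tested. Atp2b4, footprinted in 2 mice, was not. None of the 5 passed an adjusted p of 0.05 in any comparison, and 0 of the 6731 genes did. For all EAE against naïve mice the difference was -118 nt for Atp1b1 (exact p = 0.525), 143 nt for Atp2a2 (exact p = 0.858) and -1.05 nt for Atp2b1 (exact p = 0.983). It was -745 nt for Atp2b2 (exact p = 0.283) and 74 nt for Atp2b3 (exact p = 0.525), and the adjusted p of the unscaled difference was 1 for all 5. Scaling changed the Atp2b2 result. Per 1000000 footprinted nt its difference had the opposite sign, at 137 (exact p = 0.858). Per 1000000 mapped unique reads it was -349 (exact p = 0.00833, adjusted p = 0.106). The share of all genes with so low a p on the read scale is not given here, so this value is not read as particular to Atp2b2. On the read scale exact p was 0.267 for Atp1b1, 0.392 for Atp2a2, 0.142 for Atp2b1 and 0.65 for Atp2b3. The counts and shares that follow are for unscaled lengths. The median difference of the 5 was -1.05 nt beside -26.3 nt over all genes tested, of which 59.7% were lower in EAE. Groups that did not overlap were found in 0 of the 5 genes, where 1.99% of all genes had EAE wholly below naïve and 0.0149% wholly above. The smallest p these 120 splits can give is 0.00833, and 416 genes had an unadjusted p under 0.05.

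For mild EAE against naïve mice the 5 differences ran from -749 nt for Atp2b2 to 424 nt for Atp2a2, with exact p between 0.3 and 0.9, where 3 against 3 mice cannot give less than 0.1. None of the 5 had groups that did not overlap, beside 5.26% of all genes lower and 5.24% higher in mild EAE. For severe EAE the differences ran from -741 nt for Atp2b2 to 0.417 nt for Atp2b1, with exact p between 0.371 and 1, where the smallest possible p is 0.0286. Again 0 of the 5 had groups that did not overlap, beside 4.72% of all genes lower and 0.0149% higher in severe EAE. At an unadjusted p under 0.05 there were 0 genes for mild and 232 for severe EAE. The same naïve mice serve in all 3 comparisons. Severe and mild EAE mice differed with an exact p of 0.114 for Atp1b1 and of 0.257 or more for the other 4.

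Stretches of more than 1 nt that were footprinted in at least 2 mice of a group numbered 17 over the 6 genes in naïve, 21 in mild and 13 in severe EAE mice. Over the whole genome there were 7760, 9105 and 1474 such stretches, of which the 6 genes held 0.219, 0.231 and 0.882%. Atp2a2 held 8, 13 and 5 of them and Atp2b2 6, 2 and 6. Atp2b1 held 2, 3 and 2 and Atp1b1 1, 3 and 0, while Atp2b3 and Atp2b4 held 0 in every group. Coding stretches were 12 of 17, 19 of 21 and 12 of 13, and the 2 intronic ones were both in naïve mice and both in Atp2b2. Most stretches were not particular to a group. A footprint of a mouse from another group met 16 of the 17 naïve, 20 of the 21 mild and 10 of the 13 severe stretches. The naïve exception lay in Atp2a2 exon 1 and the mild one in the 5′ untranslated region of Atp1b1. The 3 severe ones lay in Atp2b2 exons 5, 6 and 7. Another part of exon 7 was footprinted in the mild EAE mouse 7. These counts rested on few mice. Without naïve mouse 3 the naïve count was 1 and without naïve mouse 1 it was 4. Without EAE mouse 7 the mild count was 7 and without EAE mouse 3 it was 9. All 13 severe stretches came from EAE mice 1 and 5, so without either the count was 0.

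Of 36 other sodium and calcium pumps, exchangers and partner genes, 17 had a footprint in at least 3 mice, 16 had none in any mouse and 0 passed the adjusted test. Of the 17, 10 were lower and 7 higher in EAE. Among the other β subunits of the Na,K-ATPase, Atp1b2, the glial β2 subunit, was footprinted in 8 mice and Atp1b3 in 7. The FXYD regulators Fxyd1 and Fxyd5 were footprinted in 3 and 5 mice. Atp2c1, the Golgi calcium pump, had footprints in 7 mice, while Atp2a1 and Atp2a3, the other SERCA genes, and Pln and Sln, their small inhibitors, had none. The calmodulin genes Calm2 and Calm3 were footprinted in 6 and 7 mice. The sodium-calcium exchanger gene Slc8a1 was footprinted in 9 mice. Of the potassium-dependent exchangers, Slc24a2 was footprinted in 9, with up to 9028 nt in naïve mouse 1, and Slc24a3 in 4. Bsg and Nptn, membrane proteins that accompany PMCA pumps, had footprints in 9 and 5 mice.

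Slc8a3, the sodium-calcium exchanger NCX3, was the 1 gene of the 17 with an unadjusted exact p under 0.05, where 6.18% of all genes tested had one, so the count is near the background. It had 875, 400 and 1112 nt in naïve mice 1 to 3, and 0, 156 and 298 nt in EAE mice 3, 4 and 7. In EAE mice 1, 2, 5 and 6 it had 0, 0, 440 and 0 nt, so that 6 of the 7 EAE mice lay below every naïve mouse. The difference was -668 nt (exact p = 0.0167, adjusted p = 0.515).

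The genes whose covered lengths were most like those of a member were found by the sum over the 10 mice of the smaller of the 2 lengths, divided by the sum of the larger, among 3655 genes footprinted in at least 5 mice. They were A230050P20Rik (0.792) and Gnl3l (0.744) for Atp1b1, Tpr (0.839) and Fryl (0.832) for Atp2a2, Tmem150b (0.837) and Pcp4l1 (0.806) for Atp2b1, and Plcl1 (0.789) and Anks1b (0.785) for Atp2b2. The points share the 10 lists and their lengths.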

How the data were processed

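Libraries of hnRNP A1 immunoprecipitates from 10 spinal cords were examined. The labels name the antibody clone 9H10 and the paper 4B10. Inputs and pooled IgG libraries were not analysed here. Per the labels and the paper, the authors assembled the reads of each library into contigs, aligned these with splicing to GRCm38 (minimap2 2.17; bcl2fastq 2.19.0.316 for base calls), subtracted sites of the matched input or pooled IgG, and merged the sites of each sample. The deposited files hold other values than counts, namely the start and end of each footprint, so the number of reads behind a site is unknown. Merging hides overlap within a mouse, and contigs make the length of a footprint depend on assembly.

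All footprints ended within the GRCm38 chromosomes, and genes were GENCODE M21. Covered length was the number of footprinted nt in a gene's span. Bases were classed over all transcripts of the gene in the order coding, untranslated, non-coding exon and intron, and exon numbers are those of the longest coding transcript. For intronic length, every base outside the gene's own exons counted. Genes with a footprint in at least 3 mice were tested with Python 3.11.15, numpy 2.4.6 and scipy 1.17.1, and the test was checked on simulated data. P-values were adjusted over all genes tested. All 6 genes were described in every mouse. From a list of 36 pumps, exchangers and partners those footprinted in at least 3 mice were named, except 4 that are not reported here, and for members in at least 5 mice the 2 most similar genes. Slc8a3 was described in full after its values were seen. The members and lists were chosen with earlier results of these data known. Sequences were read from the RefSeq copy of GRCm38. Each mouse was 1 sample. The exact permutation p is the share of group splits of these mice with an absolute difference of means at least the observed one. With the replicate number as a block, the signs of paired differences were flipped instead.

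The alternatives were footprints of at least 30 or at most 1000 nt, chromosomes only, scaling per 1000000 footprinted nt or mapped unique reads, log2(length + 1), numbers of footprints, flanks of 1000 nt, footprints over a single gene, no filter, leaving out each mouse, and the replicate number as a block.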

Additional observations from a re-analysis of the deposited data

Results flagged for a closer look

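Within severe EAE, the covered length of EAE mouse 5 stood apart from the other 3 mice for 5 of the 6 genes, by Dixon's ratio of the gap to the nearest mouse over the range of the group, which passed the 95% critical value for 4 samples. The ratio was 1 for Atp1b1 (357 nt against 0 nt in each other mouse), 1 for Atp2b3 (254 nt against 0 nt) and 1 for Atp2b4 (143 nt against 0 nt). It was 0.856 for Atp2a2 (2205 nt, the next mouse 317 nt) and 0.858 for Atp2b1 (996 nt, the next 141 nt). For Atp2b2 it was 0.743 (2835 nt, the next 729 nt), which did not pass it. EAE mouse 5 also had 31870 footprints in all, against 209 to 2670 in the other 3 severe mice. The paper had already named this mouse an outlier of its severe group, with binding like that of naïve and mild EAE mice. It reports that the mouse was in remission shortly before the experiment ended. For Atp1b1, Atp2b3 and Atp2b4 the other 3 mice tie at 0, so that any footprint gives a ratio of 1 and these ratios say nothing beyond that. Chance flags about 1 in 20 groups without such ties, and all values come from the same 4 mice. Neither the mild nor the naïve group was examined in this way, since each has 3 mice. The part of list length in these gaps was not tested.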

How the results depend on the processing

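None of the 5 tested genes passed an adjusted p of 0.05 under any alternative. Shared stretches depended on single mice: leaving out 1 mouse gave 1 to 12 in naïve, 7 to 15 in mild and 0 to 13 in severe EAE, and asking for 3 of 4 severe mice gave 0. Differences changed sign with scaling. Per 1000000 footprinted nt, all EAE minus naïve was 226 for Atp2b1 and 137 for Atp2b2, mild was 16.04 for Atp2b1, and severe was 51.9 for Atp2a2 and 460 for Atp2b2. Per 1000000 mapped unique reads, all EAE was -54.2 for Atp2a2 and -10.8 for Atp2b3, mild -8.52 for Atp1b1 and -0.243 for Atp2a2, and severe -50.3 for Atp2b1. On that scale Atp2b2 kept its sign, at -349 in all EAE (exact permutation p = 0.00833, adjusted p = 0.106) and -360 in severe EAE (exact permutation p = 0.0286, adjusted p = 0.233). On the log2 scale Atp2a2 was -2.36 in all EAE and Atp2b1 -2.24 in severe EAE. By number of footprints, severe EAE was -0.667 for Atp2b1 and 0.167 for Atp2b3. With footprints of at least 30 nt Atp2b1 was 4.38 nt in all EAE, and with footprints over a single gene Atp1b1 was -37 nt in mild EAE. Without EAE mice 2 and 6, chosen after seeing the data, all EAE was 101 nt for Atp2b1, and severe EAE was 562 nt for Atp2a2, 110 nt for Atp2b2 and 59 nt for Atp2b3.

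Leaving out 1 mouse, differences ran for all EAE from -270 to 71.4 nt (Atp1b1), -84.7 to 283 nt (Atp2a2), -115 to 50.7 nt (Atp2b1), -1063 to -590 nt (Atp2b2) and 19.7 to 142 nt (Atp2b3). For mild EAE they ran from -141 to 200.2 nt (Atp1b1), -59.5 to 772.5 nt (Atp2a2), -78.3 to 84.7 nt (Atp2b1), -1138 to -355 nt (Atp2b2) and 68 to 302 nt (Atp2b3). For severe EAE they ran from -366 to -25.2 nt (Atp1b1), -593 to 142 nt (Atp2a2), -228 to 104 nt (Atp2b1), -1376 to -431 nt (Atp2b2) and -68 to 63.5 nt (Atp2b3). The intronic difference of Atp2b2 stayed below 0, from -877 to -562 nt without 1 mouse, with adjusted p from 0.094 to 0.327. Per 1000000 mapped unique reads its groups did not overlap and the adjusted p was 0.0615, the lowest of its alternatives. The exact permutation p there was 0.00833, the smallest possible. The share of all genes with separate groups on that scale is not given here, so the separation is not read as particular to Atp2b2.

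The replicate numbers did not pair the mice (correlations of same-numbered mice -0.0255, 0.105 and 0.0201). With the number as a block, all EAE was -309 nt for Atp2a2 and -68 nt for Atp2b3, severe EAE was -193.5 nt for Atp2b1, and the intronic difference of Atp2b2 was -925 nt (exact permutation p = 0.25, adjusted p = 0.828). No paired analysis was possible for mild EAE because it shares only 1 number with the naïve mice. The causes of these changes were not tested. The paper describes the sequencing depth of its samples as similar and lists mapped unique reads per library. Reads behind each site are not given, which limits what a file without a footprint can show.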
